A study of Homo sapiens with 36 samples.

Results

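Described here are the 10 genes of the ribosome collision response in MIA PaCa-2 cells, a human pancreatic carcinoma line: ZNF598, RACK1 and EDF1 at the collided ribosomes, ASCC2, ASCC3 and TRIP4 in the complex that takes them apart, GIGYF2 and EIF4E2 in repression of the affected message, and MAP3K20 and GCN1 in signalling. Each was chosen by symbol, as the row of the count table whose Ensembl identifier carries that name, which gave 10 of 61544 rows. All 10 were among the 20767 genes that passed the filter on low counts, and the lowest count of any member in any library was 718.

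A ribosome that stalls on a message is run into by the ribosome behind it, and the surface formed between their small subunits is what the sensors read. ZNF598 ubiquitinates small-subunit proteins there, the ASC-1 complex of ASCC3, ASCC2 and TRIP4 splits the leading ribosome, and EDF1 brings in GIGYF2 with EIF4E2 to block new initiation, while the kinase ZAK (the product of MAP3K20) and GCN1, which activates the kinase GCN2, start stress responses. PELO and its GTPase partner HBS1L rescue stalled ribosomes by a separate route, and the SKI complex hands the freed message to the RNA exosome.

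The series record asks what losing PELO or HBS1L does where the SKI complex is destabilised. All 12 groups carried a doxycycline-inducible Cas9/sgRNA system and grew in tetracycline-free serum. The control line had the non-targeting guide labelled NTC, the PELO line a guide against PELO and the HBS1L line a guide against HBS1L, and each was kept without doxycycline (dox) or with 2 µg/mL dox and collected at 48 h or 96 h, with 3 libraries of polyadenylated RNA per group and 36 in all. The labels name a single sgRNA target per line, so an effect of the gene cannot be told apart from one of that line or guide. Whether the 3 libraries of a group came from separate cultures is not said, and p-values therefore measure the spread between these libraries alone. Library numbers form a block for each time. Time and batch thus cannot be told apart, and levels were tested within a time. In bulk RNA, fewer cells with a message and less message per cell cannot be told apart.

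Libraries held 45.4 to 107.4 M counts with a median of 55.2 M. The largest, replicate 2 of the PELO line with dox at 96 h, was followed by one of 66.7 M. Levels are given as CPM, counts scaled to a common library size, with sizes adjusted by the trimmed mean of M-values (TMM). HBS1L messenger RNA lay at 33.4 to 37.2 CPM in the 6 dox libraries of the HBS1L line and at 104 to 113 CPM in its 6 libraries without dox, which fits the labels. The control line without dox held 122 to 125 CPM at 48 h and 140 to 144 CPM at 96 h. The target message was thus already lower in the HBS1L line without dox, for a reason that was not tested. PELO messenger RNA lay at 20.2 to 29.9 CPM with dox and 23.7 to 31.3 CPM without dox in the PELO line, and its change beyond the control line was -0.13 ± 0.08 on the log2 scale at 48 h (adjusted p = 0.185) and 0.01 ± 0.08 at 96 h (adjusted p = 0.916). Within the PELO line it fell by 0.29 with dox at 48 h (adjusted p = 5e-05) and stood at -0.04 at 96 h (adjusted p = 0.488), and in the control line it fell by 0.16 at 48 h, so message level does not check the label of that line. Of 6 genes listed for a carcinoma line, KRT8, KRT18, KRT19 and VIM were abundant and EPCAM and CDH1 reached at most 3 counts. VIM, which is not specific to carcinoma, gave most of the signal. It lay at 7090 to 8950 CPM, beside summed group means of 9020 to 12300 CPM for the list. Of the leukocyte, fibroblast and endothelial lists, with summed group means of 0.621 to 8.33, 31.0 to 243 and 1.02 to 37.6 CPM, CD14, COL1A2 and CDH5 gave nearly all the signal while PTPRC, CD3E, DCN, LUM, PECAM1 and KDR had at most 3 counts. CDH5, COL1A2 and CD14 fell with the PELO guide (log2 changes of -4.16, -2.64 and -2.39 against the control response at 96 h), and so did all 4 abundant genes of the carcinoma list at that time. Their part in the results on the members was not tested.

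Libraries also differed in the level of long against short messages. The median of genes with at least 6 kb of exons minus that of genes under 1.5 kb (2790 and 2276 genes, log2 CPM relative to each gene's mean) was -0.26 ± 0.08 (SD, n = 3) without dox and -0.24 ± 0.05 with dox in the HBS1L line at 48 h, and its group means lay between -0.08 and 0.17 in the other 10 groups. EDF1 is the shortest member and ASCC3, with 11.38 kb of exons, the longest. Where it matters a value is also given with an offset for exonic length, an alternative chosen after this difference was seen. The offset takes out whatever follows length, from any source.

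The start regions of 5 members are shown: ZNF598, ASCC2 and TRIP4, which rose together in the PELO line, GCN1, which fell, and RACK1, whose messenger begins like that of a ribosomal protein. Each runs from 60 bases before to 30 after the RefSeq start on the strand of the gene (GRCh38.p14): chr16:2009792-2009881 on the minus strand for ZNF598, chr22:29838245-29838334 on the minus strand for ASCC2, chr15:64387776-64387865 on the plus strand for TRIP4, chr12:120194686-120194775 on the minus strand for GCN1 and chr5:181243877-181243966 on the minus strand for RACK1. Capitals mark TGACGT (the core of a cAMP response element) and CCGGAAG (an ETS-type motif) in the first 4, and in RACK1 the run of C and T that opens the message.
ZNF598: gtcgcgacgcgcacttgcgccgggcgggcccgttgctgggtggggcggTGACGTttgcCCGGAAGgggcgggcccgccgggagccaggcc
ASCC2: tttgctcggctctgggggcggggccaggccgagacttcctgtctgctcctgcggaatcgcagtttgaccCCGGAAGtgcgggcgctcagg
TRIP4: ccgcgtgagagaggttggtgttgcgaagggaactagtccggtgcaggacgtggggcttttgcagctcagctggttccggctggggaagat
GCN1: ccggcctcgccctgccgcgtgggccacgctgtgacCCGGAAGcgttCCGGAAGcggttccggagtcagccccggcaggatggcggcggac
RACK1: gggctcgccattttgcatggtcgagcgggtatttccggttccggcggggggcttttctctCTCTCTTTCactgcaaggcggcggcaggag

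The motifs were searched on both strands of the RefSeq windows of 250 bases before to 50 after a start, of which 9 members have at least 1; ASCC3 was not matched. CCGGAAG lay in 10.26% of all 35116 windows and in windows of 4 members, ZNF598, ASCC2, EIF4E2 and GCN1. TGACGT lay in 7.98% of all windows and in those of ZNF598 and GIGYF2. TGATGNAA, the composite element of the stress factors ATF4 and CHOP, lay in 3.62% of all windows and in 0 of the 10 member windows. RACK1 opens with 9 pyrimidines from its C at the start; a C followed by at least 4 more C or T was found in 4.07% of all windows and in 9 of 10 windows of genes listed as TOP messages, the growth-regulated messages of ribosomal proteins and translation factors. ZNF598, which rose, and GCN1, which fell, both hold CCGGAAG near the start, and a match is a description of the letters only. Of the members without a sequence here, EDF1 lies at chr9:136862119-136866286, ASCC3 at chr6:100508194-100881372, GIGYF2 at chr2:232697299-232860575, EIF4E2 at chr2:232550052-232583644 and MAP3K20 at chr2:173075435-173268010 (GENCODE 29, GRCh38). EDF1 and ASCC3 are on the minus strand and the other 3 on the plus strand, and levels are over all exons of a gene.

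Per kb of exon (GENCODE 29), RACK1, a scaffold of the small subunit present in every ribosome, was the most abundant member at 1240.0 CPM per kb over all libraries, followed by EDF1 at 125 CPM per kb. The other 8 lay between 7.18 CPM per kb for ASCC3, the helicase of the ASC-1 complex, and 26.0 CPM per kb for GCN1, with ZNF598 at 25.6. Of the other ASC-1 subunits, ASCC2 stood at 13.8 and TRIP4 at 8.22 CPM per kb. Between the 12 groups the highest mean of a member was 2.37 times the lowest for ASCC3, 2.29 times for ZNF598, 1.77 times for TRIP4, and at most 1.48 times for the other 7.

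In the order of the 12 groups by level, the PELO line with dox at 96 h came first for ZNF598, RACK1, ASCC2, ASCC3 and TRIP4 and last for GCN1. ZNF598, ASCC3 and TRIP4 shared the top of the order: the PELO line with dox at 96 h lay above the PELO line with dox at 48 h, and that above all other groups, with no overlap of libraries at either step. The step between the times cannot be told apart from batch. Among these members only ZNF598 had a response beyond the control line that passed a test between times, and several alternatives lost that call. Elsewhere the order is mostly not resolved. Of the 11 pairs of neighbouring groups, the libraries overlapped in 8 for ZNF598, ASCC3 and TRIP4, in 10 for RACK1, EDF1, ASCC2, GIGYF2, MAP3K20 and GCN1, and in all 11 for EIF4E2. At the other end ASCC3 and GIGYF2 had their lowest levels in the HBS1L line at 48 h, with dox and without, apart from every other group.

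**Figure D1:**
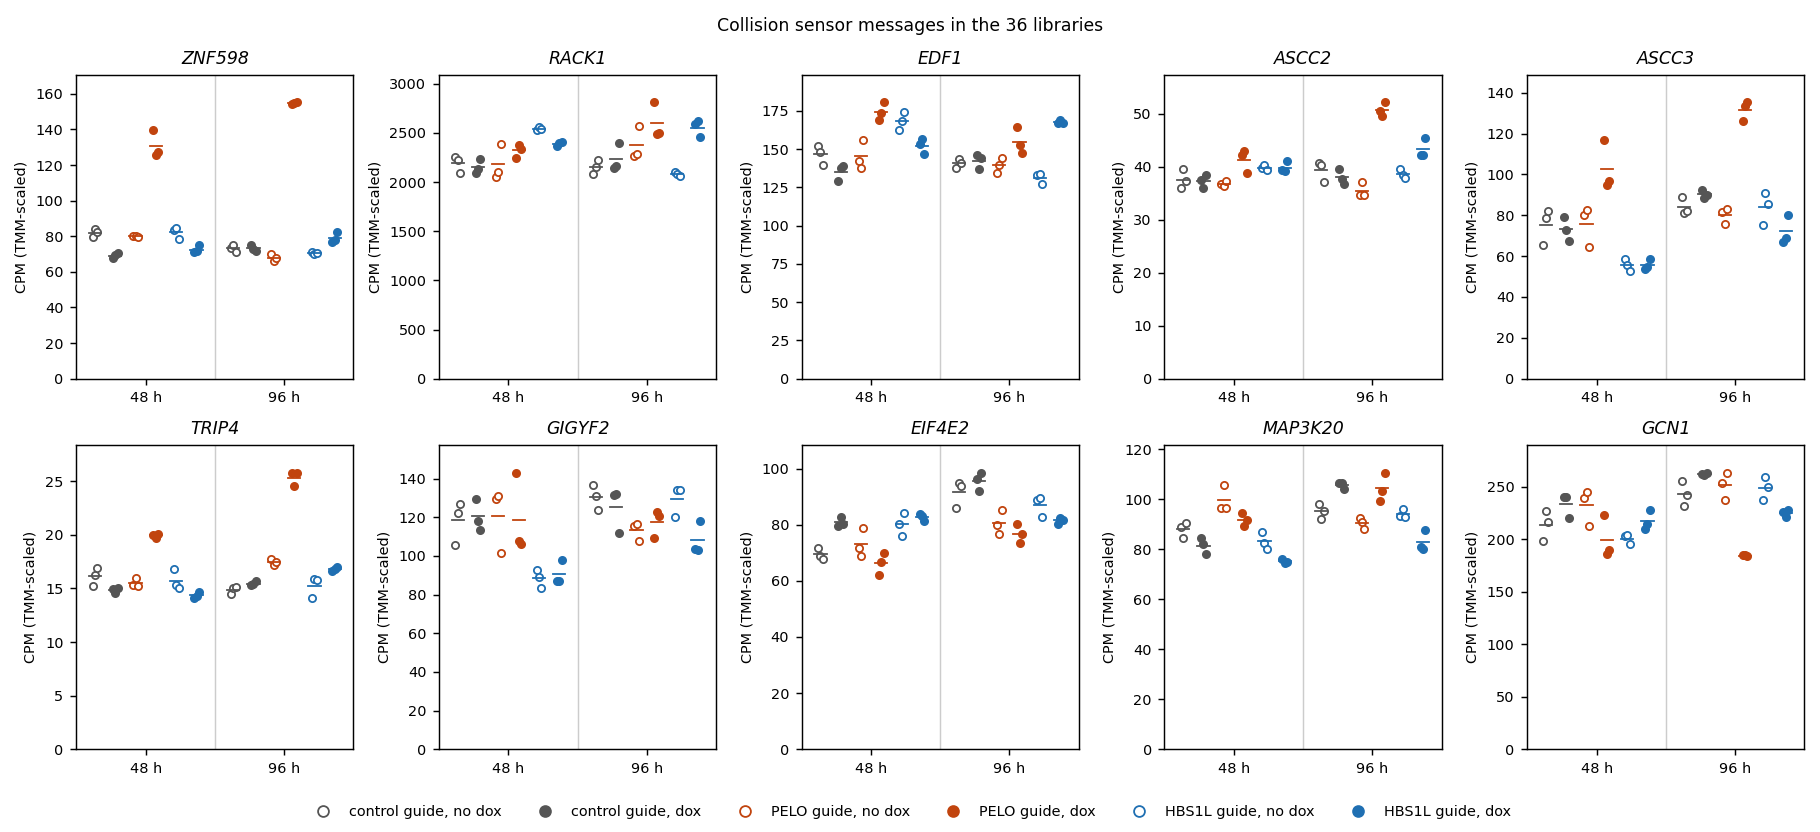
Level of each collision sensor message in CPM on TMM-scaled library sizes (vertical axes from 0), by time, guide line and dox; points are the 3 libraries of a group and bars their means. ZNF598, ASCC3 and TRIP4 are highest in the PELO line with dox at both times, and GCN1 is lowest there at 96 h, at 184 CPM.

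The main question of the design is what dox does in a targeted line beyond what it does in the control line. With the PELO guide at 48 h, 7 of the 10 members passed edgeR's quasi-likelihood test with Benjamini-Hochberg adjustment at 0.05. Of all genes tested 47.9% passed, 22.9% higher and 24.9% lower. ZNF598, EDF1, ASCC2, ASCC3 and TRIP4 rose, EIF4E2 and GCN1 fell, and RACK1, GIGYF2 and MAP3K20 did not pass. At 96 h, 5 of 10 passed, against 54.8% of all genes, 28.7% higher and 26.0% lower. ZNF598, ASCC2, ASCC3 and TRIP4 rose and GCN1 fell. With so large a share of all genes changed, the number of members called is not by itself a result about them. The median log2 change of the members was 0.15 at 48 h and 0.12 at 96 h, beside -0.04 and 0.02 over all genes. Both targeted lines are compared with the same control libraries.

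Among the members at the collision, ZNF598, the ubiquitin ligase that marks collided ribosomes, changed most. At 48 h it stood at 80.1, 80.3 and 79.3 CPM without dox and 139.5, 126 and 128 CPM once dox was given to the PELO line. The control line went from 79.7, 83.9 and 82.2 CPM to 67.5, 69.2 and 70.3 CPM. At 96 h the PELO line went from 69.8, 65.8 and 67.6 CPM to 154, 155 and 155 CPM, and the control line from 73.4, 75.0 and 71.0 CPM to 75.3, 72.6 and 71.7 CPM. All 6 dox libraries of the PELO line lay above all 30 other libraries. The change beyond the control line was 0.96 ± 0.06 (log2 ± SE, adjusted p = 1.4e-16) at 48 h, of which the fall of the control line made up 0.25, and 1.19 ± 0.06 (adjusted p = 2.2e-19) at 96 h, where the control line did not move beyond its spread. Of all genes tested, 13.9% at 48 h and 14.2% at 96 h had a larger change in either direction.

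EDF1, the small factor that binds collided ribosomes and recruits the repressors, rose at 48 h in the PELO line, from 142, 138 and 156 CPM to 169, 174 and 181 CPM, while the control line held 152, 148 and 139 CPM without and 129, 138 and 139 CPM with dox. Its change beyond the control line was 0.38 ± 0.07 (adjusted p = 7e-06). At 96 h its 3 dox libraries of 164, 153 and 148 CPM lay above its no-dox libraries of 134, 140.0 and 144 CPM, yet the change beyond the control line, 0.14 ± 0.06, did not pass (adjusted p = 0.0775); with the offset for length it was 0.20 (adjusted p = 0.00013). RACK1 passed at neither time. It stood at 2051, 2107 and 2386 CPM without dox and 2249, 2379 and 2339 CPM with dox at 48 h, and at 2262, 2289 and 2572 CPM and 2813, 2490.4 and 2495 CPM at 96 h, so that its libraries overlapped at both times. Against the control response its changes were 0.11 ± 0.08 (adjusted p = 0.226) and 0.08 ± 0.08 (adjusted p = 0.415), and 0.18 (adjusted p = 0.0043) and 0.12 (adjusted p = 0.0537) with the offset.

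The members in the ASC-1 complex, ASCC2, ASCC3 and TRIP4, all rose beyond the control line in the PELO line at both times. Its accessory subunit ASCC1, which is not a member, changed by -0.20 at 96 h. TRIP4, its zinc-finger subunit, stood at 15.3, 16.0 and 15.2 CPM without dox and 20.0, 19.7 and 20.1 CPM with it at 48 h. At 96 h it moved from 17.7, 17.2 and 17.4 CPM to 25.7, 24.5 and 25.8 CPM. The control line stayed between 14.5 and 16.9 CPM in its 12 libraries, below every dox library of the PELO line. Beyond the control line TRIP4 rose by 0.48 ± 0.07 at both times (adjusted p = 4.3e-07 and 1.6e-07).

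ASCC3, the helicase that pulls the leading ribosome apart, went from 80.2, 82.3 and 64.5 CPM to 117, 94.7 and 96.8 CPM at 48 h in the PELO line. At 96 h it moved from 81.6, 75.9 and 82.9 CPM to 126, 133 and 135 CPM. Control libraries lay between 65.5 and 92.4 CPM over both times. The dox libraries of the PELO line lay above the control libraries at both times, most clearly at 96 h, and those of 48 h differed more among themselves. Against the control response it rose by 0.49 ± 0.13 (adjusted p = 0.0025) and 0.62 ± 0.13 (adjusted p = 0.00015).

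ASCC2, which reads the ubiquitin chains that ZNF598 leaves, moved little at 48 h and more at 96 h. The PELO line held 36.8, 36.3 and 37.3 CPM without dox and 42.2, 42.9 and 38.9 CPM with it at 48 h. At 96 h these were 34.7, 37.0 and 34.7 CPM and 50.4, 49.5 and 52.2 CPM. The control line held 35.9 to 39.5 CPM at 48 h and 36.8 to 40.7 CPM at 96 h. The dox libraries of 96 h stood apart from all 33 others, while the lowest at 48 h lay within the control range. The rise beyond the control line was 0.18 ± 0.07 (adjusted p = 0.0229) and 0.57 ± 0.06 (adjusted p = 1.6e-09). The call at 48 h was lost without replicate 2 of the control line in either condition or without replicate 1 or 2 of the PELO line with dox, with adjusted p up to 0.0887, and with no filter on low counts (0.14, adjusted p = 0.296).

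Of the repressors, EIF4E2, the cap-binding protein that competes with the initiation factor EIF4E, fell beyond the control line at 48 h and GIGYF2, its scaffold, did not pass at either time. EIF4E2 stood at 71.7, 68.9 and 78.9 CPM without dox and 62.0, 66.7 and 69.8 CPM with it at 48 h for the PELO guide, so that these libraries overlapped. The control line rose over the same time, from 71.8, 69.0 and 67.7 CPM to 79.6, 82.6 and 80.2 CPM, and much of the difference of -0.36 ± 0.07 (adjusted p = 8.1e-05) comes from that rise of 0.22. At 96 h the change beyond the control line was -0.13 ± 0.07 (adjusted p = 0.121), or -0.20 (adjusted p = 0.0422) with the offset. TIGD1 covers 10.34% of the exons of EIF4E2 on the other strand, at a mean of 913 counts a library against 4540.0, and the strand setting of the counting is not given, so some reads may be shared.

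GIGYF2 was the most variable member between replicates. At 48 h the PELO line held 143, 107 and 106 CPM with dox and 129, 131 and 102 CPM without. Against the control response its changes were -0.05 ± 0.14 at 48 h (adjusted p = 0.827) and 0.11 ± 0.14 at 96 h (adjusted p = 0.536). The first of these dox libraries also had the highest ratio of long to short messages of the 36, at 0.28.

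The signalling members parted. GCN1, which activates the kinase GCN2 on collided ribosomes, fell beyond the control line at both times. At 48 h the PELO line went from 239, 245 and 213 CPM to 223, 186 and 189 CPM, with overlap. At 96 h it went from 253, 237 and 263 CPM to 184, 185 and 184 CPM, without. The control line held 198, 226 and 216 CPM without dox and 239.8, 240.3 and 220.1 CPM with it at 48 h. At 96 h these were 255, 231 and 242 CPM and 262, 261 and 263 CPM, and neither difference passed. The control rise at 48 h was called with no filter on low counts (0.14, adjusted p = 0.0289) and with the offset for length (0.17, adjusted p = 0.00186). That rise is part of the value beyond the control line at 48 h. The change beyond the control line was -0.35 ± 0.08 (adjusted p = 0.00043) and -0.56 ± 0.08 (adjusted p = 2.4e-07). MAP3K20, whose product ZAK is the kinase that collisions activate, did not pass: its change was -0.01 ± 0.06 at 48 h (adjusted p = 0.96) and 0.06 ± 0.06 at 96 h (adjusted p = 0.468). With dox it went from 92.5, 90.8 and 88.0 CPM to 99.3, 103 and 111 CPM at 96 h in the PELO line, and the control line went likewise from 98.2, 91.9 and 95.4 CPM to 107, 107 and 104 CPM.

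**Figure D2:**
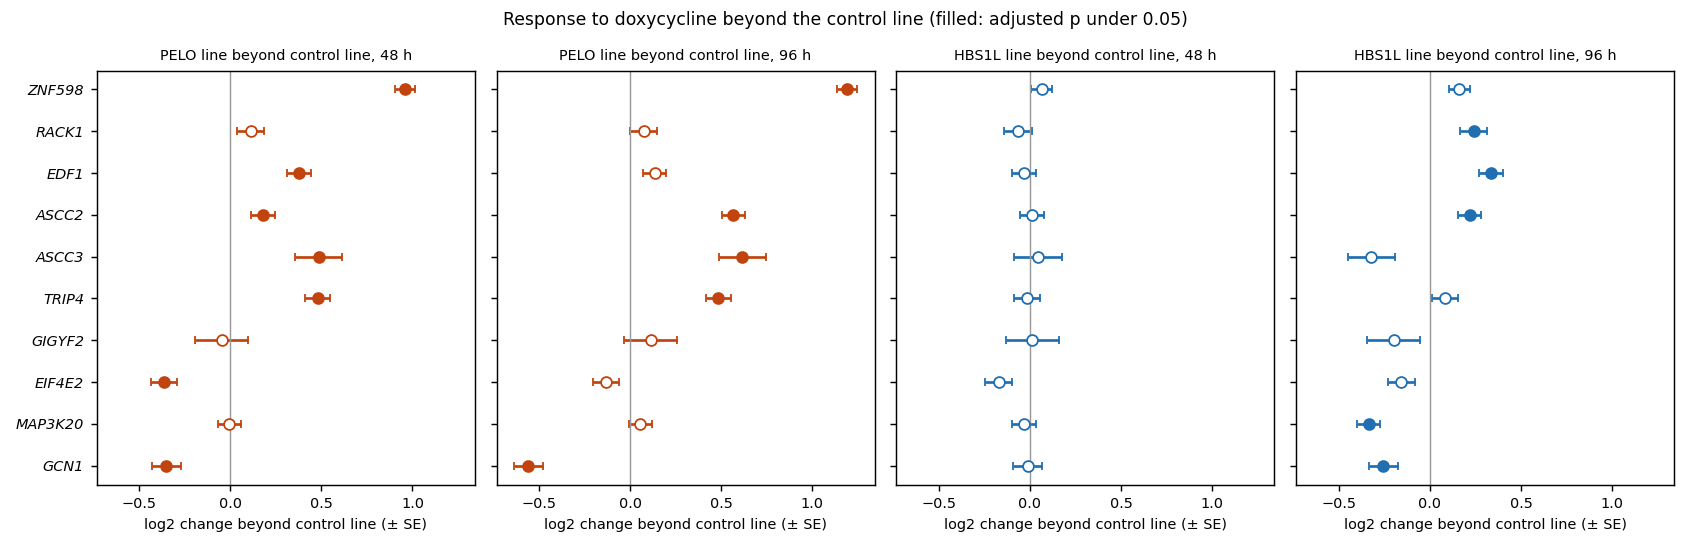
Log2 change of each member with dox beyond the control line (horizontal axis, ± SE) for the PELO and HBS1L lines at 48 h and 96 h; filled points have an adjusted p under 0.05 in edgeR's quasi-likelihood test. In the PELO line ZNF598 stands at 0.96 and 1.19 and ASCC2, ASCC3 and TRIP4 above 0, with GCN1 at -0.35 and -0.56, while in the HBS1L line no member passes at 48 h.

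Each line was also tested on its own. For the PELO line 8 of 10 members passed at 48 h, 5 higher and 3 lower, against 48.0% of genes (24.2% higher, 23.7% lower). At 96 h 8 passed, 7 higher and 1 lower, against 66.8% of genes (34.4% higher, 32.5% lower). The 3 dox libraries did not overlap the 3 without dox for 6 members at 48 h, where 52.1% of genes did not, and for 7 at 96 h, where 67.4% did not. ZNF598 rose by 0.71 ± 0.04 (adjusted p = 3.6e-17) and 1.19 ± 0.04 (adjusted p = 1.5e-24) in this line alone. In the control line dox changed 4 members at 48 h (against 35.0% of genes, 19.0% higher and 16.0% lower): ZNF598 fell by 0.25, EDF1 by 0.12 and MAP3K20 by 0.11, and EIF4E2 rose by 0.22. With no filter on low counts the calls for EDF1 (adjusted p = 0.249) and MAP3K20 (adjusted p = 0.319) were lost. At 96 h it changed 1, MAP3K20, which rose by 0.15, against 7.52% of genes (3.89% higher, 3.63% lower). That call was lost with no filter (adjusted p = 0.0522) and with only the compared groups in the fit (adjusted p = 0.0934).

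The difference between the times was tested on the response beyond the control line. It passed for 2 of the 10 members, against 20.5% of genes (10.5% higher, 9.98% lower): ASCC2 rose by 0.39 ± 0.09 more at 96 h (adjusted p = 0.00195) and ZNF598 by 0.23 ± 0.08 more (adjusted p = 0.036). The call for ZNF598 was lost when any of 13 of the 24 libraries was left out, with adjusted p up to 0.0773. It was also lost with DESeq2 size factors (adjusted p = 0.063), with no filter (adjusted p = 0.0942), with only the compared groups in the fit (0.15, adjusted p = 0.244) and with limma (adjusted p = 0.0664). EDF1 had the largest difference the other way, -0.24 ± 0.09, which did not pass (adjusted p = 0.0547) but was called with DESeq2 size factors (adjusted p = 0.0376), the offset for length (-0.30, adjusted p = 0.000243), only the compared groups (adjusted p = 0.0291), limma (adjusted p = 0.0227) and DESeq2 (adjusted p = 0.0247).

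For the HBS1L line 0 of 10 members passed the edgeR test beyond the control line at 48 h, against 3.85% of all genes (1.41% higher and 2.44% lower); 1 had an unadjusted p under 0.05 (EIF4E2, -0.17 ± 0.07), and DESeq2 and limma also called 0. At 96 h 5 of 10 passed, against 10.7% of all genes (5.41% higher and 5.32% lower): EDF1, RACK1 and ASCC2 rose, and MAP3K20 and GCN1 fell. The median over the members was -0.01 at 48 h and -0.04 at 96 h, beside -0.01 and 0.01 over all genes.

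EDF1 rose most, from 133, 134 and 127 CPM without dox to 167, 169 and 167 CPM with dox at 96 h, by 0.34 ± 0.07 beyond the control line (adjusted p = 0.00054). RACK1 went from 2106, 2079.6 and 2062 CPM to 2589, 2620.3 and 2456 CPM (0.24 ± 0.08, adjusted p = 0.0337), and ASCC2 from 39.5, 38.4 and 37.8 CPM to 42.1, 42.3 and 45.5 CPM (0.22 ± 0.06, adjusted p = 0.025). In these members all 3 dox libraries lay above all 3 without dox. MAP3K20 went from 93.4, 96.0 and 93.0 CPM to 81.0, 80.0 and 87.6 CPM, a fall of 0.33 ± 0.06 beyond the control line (adjusted p = 0.00041), and GCN1 from 238, 259 and 249 CPM to 226, 221 and 228 CPM, a change of -0.25 ± 0.08 (adjusted p = 0.0356). Here all 3 dox libraries lay below. Only EDF1 and MAP3K20 passed whichever of the 12 libraries was left out; the calls for RACK1, ASCC2 and GCN1 were lost in 8, 6 and 9 of the 12 fits, with adjusted p up to 0.102, 0.0736 and 0.116, and the number called ranged from 2 to 5. The call for ASCC2 was also lost with no filter (adjusted p = 0.0963) and with only the compared groups (adjusted p = 0.059), and that for GCN1 with the offset (-0.15, adjusted p = 0.0919).

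Taken on its own, without the control line, the HBS1L line had 3 members lower and 0 higher with dox at 48 h, against 21.5% of genes (10.1% higher, 11.4% lower): ZNF598 fell by 0.18, EDF1 by 0.15 and MAP3K20 by 0.14, and all 3 also fell in the control line. At 96 h 6 passed, against 19.9% of genes (11.0% higher, 8.90% lower): EDF1 (0.35), RACK1 (0.30), ASCC2 (0.17), ZNF598 (0.16) and TRIP4 (0.14) rose and MAP3K20 fell by 0.18. The call for TRIP4 was lost with DESeq2 size factors (adjusted p = 0.0511), no filter (adjusted p = 0.157), the offset (0.09, adjusted p = 0.225), only the compared groups (adjusted p = 0.0912) and DESeq2 (adjusted p = 0.0556), and in 4 of the 6 fits that left out a library. With the offset MAP3K20 was not called either (-0.09, adjusted p = 0.101). The libraries with and without dox did not overlap for 6 members at 48 h, where 39.7% of genes did not, and for 9 at 96 h, where 36.4% did not. The response beyond the control line differed between the times for 1 member, EDF1, which was higher at 96 h by 0.37 ± 0.09 (adjusted p = 0.0229), against 3.07% of genes (1.83% higher, 1.23% lower). That call was lost in 3 of the 24 fits that left out a library, with adjusted p up to 0.057.

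These changes in the HBS1L line at 96 h were ordered by the length of the message. The members under 4 kb, EDF1, RACK1, TRIP4, ASCC2 and ZNF598, had changes from 0.08 to 0.34, and those above 5 kb, EIF4E2, GIGYF2, GCN1, MAP3K20 and ASCC3, from -0.33 to -0.16. Over the 10 members the log2 change and the log10 of exonic length had a Pearson r of -0.957, a description of genes that share the same libraries. The same slope, smaller, was seen over all genes, with medians of 0.06 under 1.5 kb and -0.09 from 6 kb. With the offset for length EDF1 (0.28, adjusted p = 1.7e-05), RACK1 (0.20, adjusted p = 0.0085) and ASCC2 (0.20, adjusted p = 0.0325) were still called higher and MAP3K20 (-0.22, adjusted p = 0.0057) lower. ZNF598, not called without it, was called higher (0.16, adjusted p = 0.0377), and GCN1 lost its call (-0.15, adjusted p = 0.0919). In the PELO line the same correlation was -0.374 at 48 h and -0.225 at 96 h, and with the offset ZNF598 changed by 0.95 and 1.18, TRIP4 by 0.52 and 0.51, ASCC3 by 0.43 and 0.56, and GCN1 by -0.40 and -0.62, and each passed at both times.

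**Figure D3:**
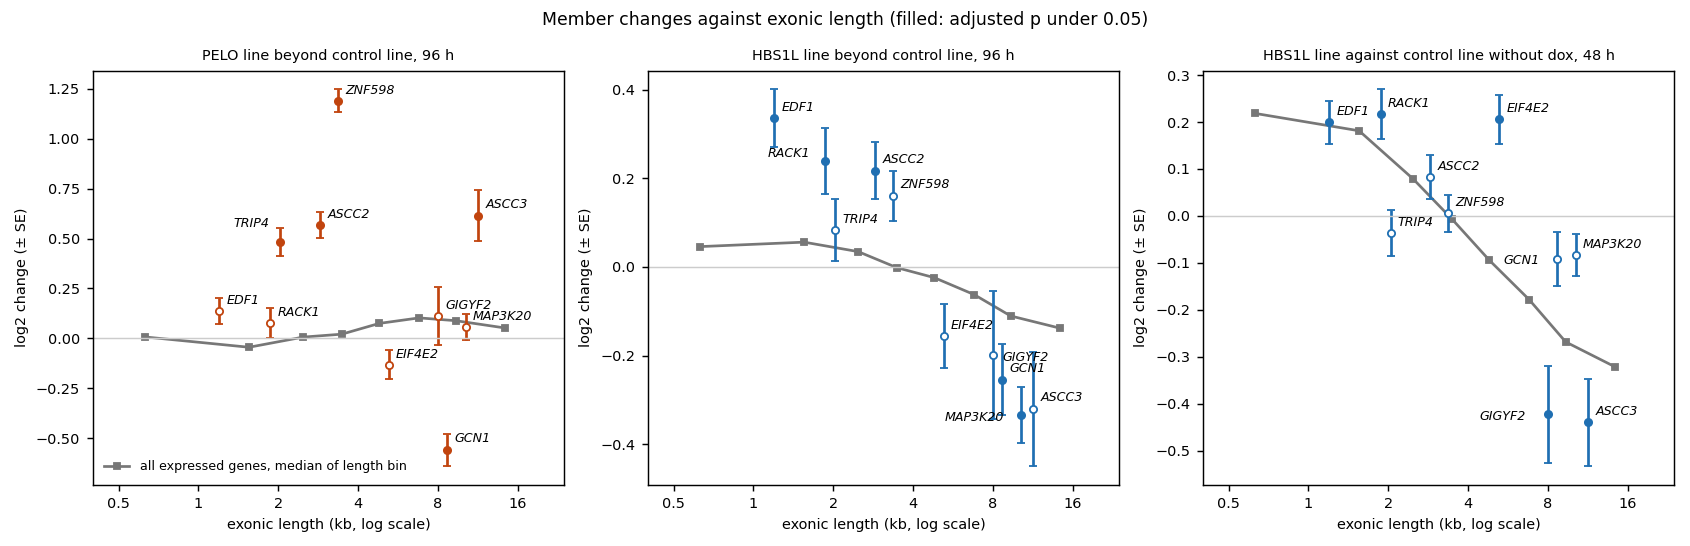
Log2 change of each member (vertical axis, ± SE; filled, adjusted p under 0.05) against its exonic length in kb (log scale), for the PELO and HBS1L lines beyond the control line at 96 h and for the HBS1L line against the control line without dox at 48 h; grey squares are medians of all genes expressed at 1 CPM or more in bins of length. The members fall with length in both HBS1L panels (r of -0.957 and -0.723), while in the PELO line ZNF598 at 1.19 and GCN1 at -0.56 lie off the grey line.

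Without dox the lines already differed. At 48 h 5 of 10 members of the HBS1L line differed from the control line, against 37.9% of genes (18.7% higher, 19.2% lower): RACK1 (0.22), EIF4E2 (0.21) and EDF1 (0.20) were higher, and ASCC3 (-0.44) and GIGYF2 (-0.42) lower. ASCC3 stood at 58.5, 55.7 and 52.7 CPM against 65.5, 78.6 and 82.0 CPM in the control line, and GIGYF2 at 92.6, 89.1 and 83.3 CPM against 106, 122 and 127 CPM, without overlap. Medians over all genes were 0.21 under 1.5 kb and -0.22 from 6 kb in this comparison. With the offset ASCC3 (-0.16, adjusted p = 0.0381) and GIGYF2 (-0.21, adjusted p = 0.0203) stayed lower at less than the reported size, RACK1 (0.08, adjusted p = 0.0997) and EDF1 (0.01, adjusted p = 0.871) were not called, and MAP3K20 and GCN1 were called higher, at 0.18 and 0.14, where without it they stood below 0. TRIP4 was then called lower (-0.16, adjusted p = 0.021). At 96 h 0 of 10 members passed the edgeR test in the HBS1L line without dox, against 0.135% of genes (0.0867% higher, 0.0482% lower); 1 had an unadjusted p under 0.05, and DESeq2 and limma called 0.

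In the PELO line without dox, MAP3K20 alone was higher at 48 h, at 96.7, 106 and 96.6 CPM against 89.0, 84.6 and 90.6 CPM (0.18 ± 0.04, adjusted p = 0.0061), against 11.1% of genes (6.37% higher, 4.72% lower). That call was lost with only the compared groups in the fit (adjusted p = 0.0607). At 96 h 4 members differed, against 21.8% of genes (10.3% higher, 11.5% lower): TRIP4 was higher by 0.23 and ZNF598, ASCC2 and EIF4E2 lower by 0.11, 0.15 and 0.18 on the log2 scale. The call for ZNF598 was lost with DESeq2 size factors, no filter, only the compared groups and limma (adjusted p = 0.0568, 0.224, 0.122 and 0.0686), and that for ASCC2 with no filter and only the compared groups (adjusted p = 0.0659 and 0.076). Each of these 2 calls was also lost in 4 of the 6 fits that left out a library, and that for EIF4E2 in 2, with adjusted p up to 0.242, 0.0917 and 0.0879. Some alternatives added calls at 96 h. RACK1 was called higher (0.13 to 0.15) with no filter, the offset, limma and DESeq2. GIGYF2 was called lower (-0.20 in each) with the offset and with only the compared groups.

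The responses of the 2 targeted lines were tested against each other directly, where the control libraries cancel. At 48 h 7 of 10 members differed, against 43.2% of genes (21.9% higher, 21.3% lower). At 96 h 7 of 10 differed, against 55.5% of genes (29.1% higher, 26.4% lower). ZNF598, ASCC2, ASCC3 and TRIP4 were higher with the PELO guide at both times: ZNF598 by 0.89 ± 0.06 and 1.03 ± 0.06 (adjusted p = 1.5e-15 and 1.2e-17), and ASCC3 by 0.44 ± 0.13 and 0.94 ± 0.13 (adjusted p = 0.00665 and 3.2e-07). The call for ASCC2 at 48 h (0.17, adjusted p = 0.0367) was lost with no filter, the offset and limma (adjusted p = 0.336, 0.0622 and 0.0668), and in 8 of the 12 fits that left out a library. GCN1 was lower at both times, by 0.34 ± 0.08 and 0.30 ± 0.08 on the log2 scale (adjusted p = 0.00076 and 0.00156). EDF1 turned: it was higher with the PELO guide at 48 h (0.41 ± 0.06, adjusted p = 2.3e-06) and lower at 96 h (-0.20 ± 0.06, adjusted p = 0.00824), where with the offset for length it was -0.08 (adjusted p = 0.118). MAP3K20 differed at 96 h, by 0.39 ± 0.06 (adjusted p = 1.8e-06). Some alternatives added calls. RACK1 was called higher at 48 h (0.18 to 0.20) with DESeq2 size factors, the offset, only the compared groups and DESeq2. At 96 h RACK1 was called lower with no filter (-0.17) and with limma (-0.20). GIGYF2 was called higher at 96 h with only the compared groups (0.30) and with DESeq2 (0.31).

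Around the members, 33 genes with a place in the same pathway were read as groups. Against the control response 8 rose and 6 fell at 48 h with the PELO guide, and 14 rose and 9 fell at 96 h. With the HBS1L guide, likewise against the control response, 1 was higher and 3 lower at 48 h, and 2 were higher and 4 lower at 96 h. HBS1L itself, the target of that guide, is among the lower genes at both times (-1.67 and -1.77). The counts stand beside 47.9% and 54.8% of all genes with the PELO guide and 3.85% and 10.7% with the HBS1L guide.

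Of 8 ubiquitin ligases and deubiquitinases that act on stalled ribosomes, 4 rose and 1 fell at 48 h and 4 rose and 3 fell at 96 h in the PELO line. RNF25, a ligase that marks stalled ribosomes, rose most, from 19.5 ± 1.71 CPM without dox to 34.4 ± 1.76 CPM with it at 48 h (SD, n = 3). At 96 h it rose from 17.0 ± 0.875 to 50.2 ± 0.823 CPM. The rises were 1.11 ± 0.09 and 1.63 ± 0.09 beyond the control line (adjusted p = 8e-13 and 1.3e-17). CNOT4, the ligase subunit of the CCR4-NOT complex, rose by 0.63 at 48 h. At 96 h OTUD3, a deubiquitinase that opposes ZNF598 on the small subunit, rose by 0.94, while USP21, another such enzyme, fell by 0.70 and the ligase MKRN1 by 0.33. Of the 8, 0 passed the edgeR test in the HBS1L line at either time. At an unadjusted p under 0.05 there was 1 at 48 h, where DESeq2 and limma called 0, and there were 3 at 96 h, where DESeq2 called 1 and limma 0.

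Of the 4 small-subunit proteins that the ligases mark (RPS2, RPS3, RPS10 and RPS20), 0 passed the edgeR test in the PELO line at either time, 0 had an unadjusted p under 0.05, and DESeq2 and limma called 0; their changes lay between -0.07 and 0.11. RPS2 rose in the HBS1L line, by 0.31 ± 0.09 at 96 h (adjusted p = 0.0277). Of 12 TOP messages, 4 rose and 1 fell at 48 h and 3 rose and 2 fell at 96 h in the PELO line, with TPT1 highest at 0.53 and EEF2 lowest at -0.34 at 96 h. Of all genes, 22.9% were higher and 24.9% lower at 48 h, and 28.7% and 26.0% at 96 h. With the HBS1L guide 5 of the 12 rose at 96 h and 0 fell, against 5.41% of all genes higher and 5.32% lower. RPL13A (0.30) and RPL3 (0.27) led, beside RACK1 at 0.24, whose message opens in the same way. The call for RACK1 was lost in most fits that left out a library. Short messages as a whole were higher in this comparison, with medians of 0.06 under 1.5 kb and -0.09 from 6 kb. The part of length in the TOP count was not tested.

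Of 7 splitting and rescue factors, PELO and HBS1L among them, 2 rose and 1 fell at 48 h and 4 rose and 2 fell at 96 h in the PELO line. N4BP2, an endonuclease of the family that cuts messages at collisions, rose from 5.45 ± 0.556 CPM without dox to 9.67 ± 0.539 CPM with it at 48 h. At 96 h it rose from 4.43 ± 0.526 to 17.3 ± 0.619 CPM. The rises were 1.19 ± 0.14 and 1.86 ± 0.14 beyond the control line (adjusted p = 3.8e-09 and 4.4e-14). GTPBP2, a GTPase of rescue, rose by 2.12 ± 0.08 and 1.63 ± 0.08; at 48 h the line itself went from 83.7 to 145 CPM while the control line fell from 114 to 45.5 CPM. HBS1L messenger RNA itself rose in the PELO line at 96 h, from 149, 145 and 153 CPM to 216, 222 and 225 CPM, by 0.51 ± 0.04 beyond the control line (adjusted p = 2.9e-12), after -0.19 at 48 h. GTPBP1, the relative of GTPBP2, fell by 0.36 at 96 h, and ASCC1, the accessory subunit of the ASC-1 complex, by 0.20 (adjusted p = 0.0331) where ASCC2, ASCC3 and TRIP4 rose. Against the control response GTPBP2 was higher in the HBS1L line by 0.56 and 0.49. The fall of the control line at 48 h, from 114 to 45.5 CPM, was larger than 0.56 on the log2 scale. At that time GTPBP2 thus fell less in the HBS1L line than in the control line and did not rise. ABCE1, which splits ribosomes after rescue, fell by 0.28 beyond the control line at 96 h.

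Of 4 partners of the repressors, 2 rose at 96 h in the PELO line, EIF4ENIF1 by 0.46 and EIF4E, the competitor of EIF4E2, by 0.38; at 48 h 0 of 4 passed the edgeR test, 0 had an unadjusted p under 0.05, and DESeq2 and limma called 0. EIF4E fell in the HBS1L line by 0.25 and 0.23 and the helicase DDX6 by 0.28 at 96 h. Of 10 genes on the kinase arms, 2 rose and 4 fell at 48 h and 4 rose and 4 fell at 96 h in the PELO line. MAP2K4 and MAPK8, kinase and substrate in the JNK arm below ZAK, rose by 0.43 and 0.50 at 48 h and by 0.51 and 0.68 at 96 h, while MAPK9, the other JNK gene, fell by 0.33 and 0.30. EIF2AK4, which encodes GCN2, fell by 0.23 and 0.19, the direction of GCN1 (EIF2AK4 was chosen after its values were seen), and IMPACT, an inhibitor of that step, fell by 0.33 at 48 h.

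Of 9 messages downstream of the collision kinases, 7 were higher and 1 lower at each time with the PELO guide, against the control response, with medians of 2.28 and 1.84. Of all genes, 22.9% were higher and 24.9% lower at 48 h, and 28.7% and 26.0% at 96 h. The fall of the control line is part of the values of the 9 at 48 h, when 6 of them fell and 1 rose in it with dox (median -1.16). Of all genes 16.0% fell and 19.0% rose in the control line at that time. At 96 h the median of the 9 in the control line was -0.07. In the PELO line itself 6 rose and 2 fell at 48 h (median 0.64), and 7 rose and 2 fell at 96 h (median 1.78). Of all genes, 24.2% rose and 23.7% fell in it at 48 h, and 34.4% and 32.5% at 96 h. ATF3, a transcription factor of the stress response, rose by 2.33 and 3.10 in the PELO line itself, and by 4.47 ± 0.13 and 3.15 ± 0.14 against the control response (adjusted p = 3.8e-24 and 1.9e-19). TRIB3 was higher by 3.14 against the control response at 48 h, of which 0.64 was the rise in the PELO line, and PPP1R15A, the stress-induced phosphatase subunit, by 2.76 at 96 h, while FOS was lower, at -0.81 and -0.58. In the HBS1L line 6 of 9 were higher beyond the control line at each time (against 1.41% and 5.41% of all genes), while in the line itself 2 rose and 6 fell at 48 h and 7 rose at 96 h. Of all genes, 10.1% rose and 11.4% fell in that line at 48 h, and 11.0% and 8.90% at 96 h. Beyond the control line ATF3 stood at 0.68 and PPP1R15A at 0.59 at 48 h, and DDIT3 at 0.96 and TRIB3 at 0.88 at 96 h. At 48 h ATF3 fell with dox in both lines and fell less in the HBS1L line: it went from 15.9 ± 0.730 to 5.80 ± 0.287 CPM in the HBS1L line and from 18.2 ± 0.124 to 4.13 ± 0.440 CPM in the control line. At 96 h DDIT3 and TRIB3 rose in the HBS1L line itself, DDIT3 from 11.8 ± 1.02 to 21.9 ± 1.15 CPM, at the time when EDF1 and RACK1 were higher and ZNF598 stood at 0.16 ± 0.06 (adjusted p = 0.0624).

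**Figure D4:**
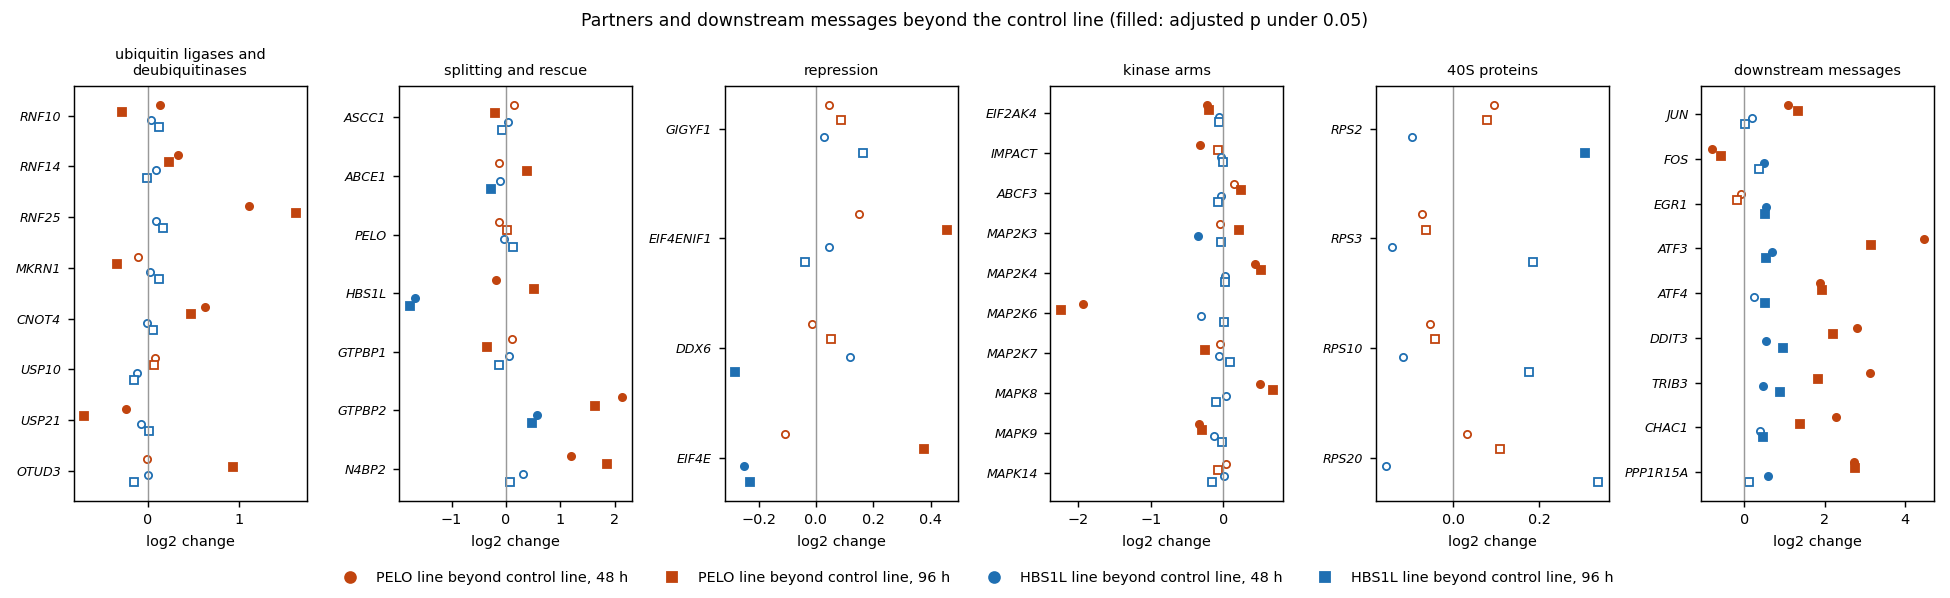
Log2 change beyond the control line (horizontal axes, which differ in range between panels) of pathway partners and downstream messages in the PELO line (orange-red) and HBS1L line (blue) at 48 h (circles) and 96 h (squares); filled symbols have an adjusted p under 0.05. RNF25, N4BP2 and GTPBP2 stand farthest to the right among the partners of the PELO line, and MAP2K6, whose group means lie under 1 CPM, farthest to the left.

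Over the 12 group means the members fell into different company. ZNF598 and TRIP4 had a Pearson r of 0.907, ZNF598 and ASCC2 of 0.796 and ASCC3 and TRIP4 of 0.781, while ZNF598 and GCN1 had r of -0.81. RACK1 went most with EDF1, at 0.733. These describe 12 points that share lines, times and libraries. Among 10802 genes with a symbol and a mean of at least 5 CPM, the most alike to ZNF598 were TNFRSF12A (r = 0.995) and DUSP7 (0.992), and to RACK1 the ribosomal protein genes RPL14 (0.973) and RPL19 (0.972). ASCC3 was most like NUFIP2 and PSME4 (both 0.992), TRIP4 like BNIP3L (0.984) and RAB11FIP5 (0.983), ASCC2 like REXO2 (0.952) and ZNG1A (0.95), and EDF1 like REEP4 (0.875) and NOP53 (0.874). GCN1 was most like ATP6V1A (0.978) and RBM12 (0.967), GIGYF2 like SRCAP (0.976) and APC (0.973), EIF4E2 like MED31 (0.972) and SUB1 (0.97), and MAP3K20 like NAT10 (0.964) and NUDT19 (0.958).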

How the data were processed

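RNA-seq was deposited for 36 libraries of MIA PaCa-2 cells in 12 groups of 3. The deposited count table holds expected counts (45.6% of values above 0 were not whole), which were rounded. The authors' log2 table, with 17138 genes, equals the log2 of the count plus 0.5 and a constant per library. The tools listed in the submitters' processing notes are edgeR, limma, Subread, featureCounts and DRAGEN, with the build GRCh38.p13. Order, options and strand setting: not given in the sources used here. Here edgeR 4.0.16 in R 4.3.3 was run on genes passing filterByExpr (minimum count 10, minimum total 15; 20767 genes) with TMM scaling, 1 mean per group over all 36 libraries, robust quasi-likelihood tests and Benjamini-Hochberg adjustment over all genes tested, with calls at 0.05, after a check on simulated data. CPM use the same scaling.

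Libraries held 45.4 to 107.4 M counts, and the lowest correlation between replicates was 0.9927 (log2 CPM, across genes). Exonic lengths are from GENCODE 29 and start windows from RefSeq (GRCh38.p14). Named were all members, PELO and HBS1L, and from each other list up to 2 genes per direction and beyond-control comparison with the largest called change and a mean of at least 1 CPM. Members and lists were chosen with earlier results of these data known. Alternatives were DESeq2 1.42.0 and its size factors, limma 3.58.1 on the log2 table, no filter, other sample sets, a replicate block, leaving out each library and, added after the data were seen, an offset for exonic length. Protein and ubiquitination were not measured.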

Additional observations from a re-analysis of the deposited data

Results flagged for a closer look

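The responses of the PELO and HBS1L lines to dox differed, by a test of the difference itself in edgeR, for 7 members at each time. Of all genes tested, 43.2% differed at 48 h and 55.5% at 96 h. At 48 h the PELO response minus the HBS1L response, on the log2 scale, was 0.89 for ZNF598 (adjusted p = 1.5e-15), 0.49 for TRIP4 (2.8e-07), 0.44 for ASCC3 (0.00665), 0.41 for EDF1 (2.3e-06) and 0.17 for ASCC2 (0.0367), and -0.34 for GCN1 (0.00076) and -0.19 for EIF4E2 (0.0323). The calls for ASCC2 and EIF4E2 were lost in 8 and 5 of the 12 fits that left out 1 library, with adjusted p up to 0.108 and 0.147. ASCC2 was also not called with no filter, the offset for exonic length or limma (adjusted p = 0.336, 0.0622 and 0.0668), nor EIF4E2 with DESeq2 size factors, only the compared groups or DESeq2 (adjusted p = 0.0587, 0.0853 and 0.0618).

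At 96 h the difference was 1.03 for ZNF598 (adjusted p = 1.2e-17), 0.94 for ASCC3 (3.2e-07), 0.40 for TRIP4 (4.7e-06), 0.39 for MAP3K20 (1.8e-06) and 0.35 for ASCC2 (1.6e-05), and -0.30 for GCN1 (0.00156) and -0.20 for EDF1 (0.00824). With the offset for exonic length these were 1.02, 0.76, 0.47, 0.22, 0.36, -0.47 and -0.08, and the last was not called.

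The response beyond the control line differed between 48 h and 96 h for 3 members: in the PELO line it was larger at 96 h by 0.39 for ASCC2 (adjusted p = 0.00195) and by 0.23 for ZNF598 (adjusted p = 0.036), and in the HBS1L line by 0.37 for EDF1 (adjusted p = 0.0229). Of all genes tested, 20.5% differed between the times in the PELO line and 3.07% in the HBS1L line. The call for ZNF598 was lost under 4 of the alternatives without a block, with adjusted p from 0.063 to 0.244. Time and batch cannot be told apart here.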

How the results depend on the processing

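Over all alternatives 3100 values of single members were recomputed: 2854 kept their direction and side of the threshold (138 of them uncalled values that changed sign), 149 lost their call, 90 gained one and 7 changed sign with a call. With the PELO guide, against the control response, ZNF598, ASCC3, TRIP4 and GCN1 at both times, EDF1 and EIF4E2 at 48 h and ASCC2 at 96 h kept their calls whichever library was left out. Counts of members called moved by over 1.5 times as follows. With the dox libraries alone 8 were called in the PELO line at 96 h, and 4 and 8 in the HBS1L line at 48 h and 96 h. Of all 20767 genes, 13346, 4791 and 6185 were called in these comparisons, against 11376, 799 and 2228 as reported. The use of dox libraries alone keeps the differences the lines had without dox. Under it MAP3K20 was 0.17 in the PELO line at 48 h, and RACK1, EDF1, ASCC3 and GIGYF2 were 0.15, 0.17, -0.39 and -0.41 in the HBS1L line at 48 h, signs opposite to those reported. With the offset for exonic length MAP3K20 and GCN1 turned to 0.18 and 0.14 in the HBS1L line without dox at 48 h. With no filter 0 were called for the control line at 96 h, 1 for dox in the HBS1L line at 48 h, and 1 and 2 for the time differences of the PELO and HBS1L lines. Of all 50545 genes then tested, 1499, 3741, 3777 and 699 were called, in that order. With only the compared groups in the fit the members called were 0 for the control line at 96 h, 5 for dox in the HBS1L line at 48 h, 0 for the untreated PELO line at 48 h and 3 for the HBS1L time difference. Of all genes then tested, 614 of 18557, 5783 of 19346, 1736 of 18877 and 981 of 20446 were called, in that order. For the HBS1L time difference limma on the log2 table called 2 members and 543 of 17138 genes. DESeq2 called 2 members and 873 of 20767 genes for it. The cause was not tested. Leaving out 1 library gave 2 to 5 for the HBS1L line beyond the control line at 96 h, 2 to 4 and 0 to 1 for the control line at 48 h and 96 h, 1 to 3 for dox in the HBS1L line at 48 h, 0 to 1 and 1 to 5 for the untreated PELO line at 48 h and 96 h, and 1 to 3 and 0 to 3 for the time differences of the PELO and HBS1L lines.

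Over all pairs of groups, libraries of the same replicate number did not as a rule deviate together (median correlation -0.01 over 90 pairs, 6 over 0.1). The values ran from -0.208 to 0.199. The highest was for replicate 3 at 96 h, between the control line with dox and the PELO line without. For replicate 3 of these 2 lines without dox at 96 h it was 0.169. A median over all pairs cannot tell whether the numbers pair libraries in some groups. With the replicate block 2 members were called for the control line at 48 h and 1 for the PELO time difference, and no other count moved by over 1.5 times. Of all 20767 genes, 7144 and 4121 were called in those comparisons. Single calls lost with the block were EDF1 (adjusted p = 0.0566) and MAP3K20 (0.0558) in the control line at 48 h, TRIP4 for dox in the HBS1L line at 96 h (0.0539), ZNF598 in the untreated PELO line at 96 h (0.0646) and for the PELO time difference (0.0516), and ASCC2 between the responses at 48 h (0.0503). The lowest count of a member was 718, and what limits the precision was not tested.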
